A study of Mus musculus with 12 samples.

Results

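Potassium channel subunit genes were examined in cultured adult neural stem/progenitor cells (aNSPCs) with and without added nicotinamide adenine dinucleotide (NAD+). They were chosen by symbol and by level: the symbol is Kcn followed by letters and a final number, antisense and pseudogene symbols are left out, and the mean FPKM over all 12 samples is at least 0.1. FPKM (fragments per kilobase of transcript and per unit of library size) is a level that allows for gene length and sequencing depth. Of 92 such symbols among the 55401 listed genes, 57 reached this mean level and 35 did not. The level that chose them is given below as a description, and the rule used no contrast between the groups.

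The cells came from the forebrain of adult C57BL/6 mice aged 8 to 10 weeks and were grown with epidermal growth factor and FGF-2. Proliferating cells, and cells differentiated with retinoic acid at 1 µM plus forskolin at 5 µM, were left without NAD+ (Ctrl) or given it at 1 mM. RNA-seq of these 4 groups comprised 3 samples per group. The treatment field of the labels calls all 12 samples untreated, so the groups follow the sample titles, and the dose and the differentiation agents follow the methods of the study. The study calls the samples biological repeats, and the labels do not say whether they came from separate cultures or mice, so the p-values measure only the spread between these samples.

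Potassium channels let potassium ions cross the cell membrane and so set its resting potential and shorten electrical signals. Voltage-gated channels open on depolarization, inward rectifiers and 2-pore-domain channels carry resting and background currents, and calcium-activated or sodium-activated channels open when those ions rise inside the cell. Modifier subunits form no working channel alone and join other voltage-gated subunits, and auxiliary subunits bind to the pore from the membrane or the cytosol. Astrocytes are known for inward rectifiers that take up potassium, and dividing progenitors for few of the channels that neurons use to fire.

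FPKM values summed to between 308828 and 363330 per sample, which does not measure depth. The values are rounded to 0.01, so reads and depth are unknown and no counting error can be given. Pearson's r between replicates across genes (log2 values) was 0.958 to 0.978, and the lowest values belonged to proliferating Ctrl sample 1, which also had the highest sum. Stem and progenitor markers were present in all samples (Sox2 FPKM from 128.6 to 251.9), and 4 of 8 neuronal markers, Stmn2, Rbfox3, Syt1 and Nefl, stayed at or under 0.69. Of the other neuronal markers, Snap25 lay between 0.51 and 1.09, Dcx between 1.02 and 4.39, Tubb3 between 8.23 and 14.2 and Map2 between 10.6 and 20.6. Gfap, an astrocyte filament gene, lay between 11.3 and 20.5 FPKM in the proliferating samples and between 546.0 and 998.6 in the differentiation samples. Because the samples are bulk RNA, fewer cells of a type and less RNA per cell cannot be told apart in any result that follows.

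The start regions of 4 genes that carry the largest results are shown for their differing base makeup. These are Kcnj10, the gene with the highest mean level, Kcnmb4, for which the NAD+ effect differed between the conditions, Kcnc4, with the largest fall upon differentiation, and Kcnj8, which was higher with NAD+ under differentiation conditions, the group whose level brought it into the 57. Each line gives the 250 bases before the RefSeq start (GRCm38.p6) on the strand of the gene, 5′ to 3′, with CG pairs in capitals.
Kcnj10, chr1:172340960-172341209, plus strand: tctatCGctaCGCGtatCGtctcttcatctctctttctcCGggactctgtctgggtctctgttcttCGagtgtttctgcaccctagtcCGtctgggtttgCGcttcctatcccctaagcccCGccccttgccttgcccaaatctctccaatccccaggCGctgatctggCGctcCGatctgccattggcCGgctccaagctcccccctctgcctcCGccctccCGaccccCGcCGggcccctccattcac
Kcnmb4, chr10:116473524-116473773, minus strand: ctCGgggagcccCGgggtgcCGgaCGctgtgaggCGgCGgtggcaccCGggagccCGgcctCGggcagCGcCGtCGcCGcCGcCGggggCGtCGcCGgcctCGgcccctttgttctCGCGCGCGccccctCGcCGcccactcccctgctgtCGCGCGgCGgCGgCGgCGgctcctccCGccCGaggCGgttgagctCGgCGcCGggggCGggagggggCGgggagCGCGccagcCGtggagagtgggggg
Kcnc4, chr3:107458899-107459148, minus strand: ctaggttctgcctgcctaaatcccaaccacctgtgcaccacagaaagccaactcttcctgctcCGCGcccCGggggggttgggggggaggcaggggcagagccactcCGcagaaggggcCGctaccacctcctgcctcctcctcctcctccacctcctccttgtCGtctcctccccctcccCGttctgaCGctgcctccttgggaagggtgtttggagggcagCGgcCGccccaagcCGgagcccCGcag
Kcnj8, chr6:142571615-142571864, minus strand: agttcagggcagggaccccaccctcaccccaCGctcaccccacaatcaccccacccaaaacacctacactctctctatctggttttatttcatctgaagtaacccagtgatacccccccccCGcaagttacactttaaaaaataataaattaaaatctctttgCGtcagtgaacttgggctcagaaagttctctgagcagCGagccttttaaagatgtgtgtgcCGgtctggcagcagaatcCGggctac

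The Kcnmb4 region held 43 CG pairs with a GC content of 83.6%, the Kcnj10 region 17 with 62%, the Kcnc4 region 12 with 68%, and the Kcnj8 region 6 with 49.2%. The Kcnc4 and Kcnmb4 regions lie inside the genes as GENCODE places them, since their RefSeq starts are further downstream. The RefSeq starts of 41 of the 57 genes gave 61 windows of 300 bases around the start. In the 250 bases of a window before the start, the median was 8 CG pairs, against 6 over all 32851 windows. The letters TGACGTCA, the full cAMP response element, were searched on both strands of the 300-base windows because forskolin raises cAMP. They were found in 0 of the 61 windows and in 1.79% of all windows. TATAAA was found in windows of Kcnj9 and Kcnj16, in 2 of 61 windows (3.28%), against 13.6% of all windows. The direct repeat with a spacer of 5 bases that is known as a retinoic acid response element was in 0 of the 61 windows and in 0.00913% of all. The search covered only these exact letters in these windows, and says nothing about variants of them or sites elsewhere.

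The levels were uneven across the 8 classes. The rule took 12 of 17 voltage-gated pore-forming genes, 5 of 10 modifiers, 4 of 5 KCNQ genes, 4 of 8 ether-a-go-go genes, 10 of 15 inward rectifiers, 7 of 14 2-pore-domain genes, 7 of 8 calcium- or sodium-activated genes and 8 of 15 auxiliary genes. Means over the 12 samples were at least 10 FPKM for 5 genes, between 1 and 10 for 22, and under 1 for 30, with a median of 0.896. The 5 highest, Kcnj10 (57.4), Kcnip3 (39.6), Kcnj16 (22.5), Kcnn2 (20.2) and Kcnmb4 (13.5), held from 57.8% to 76% of the summed FPKM of all 57 in a sample. Kcnj10 and Kcnj16 encode inward rectifier subunits that can form 1 channel together, Kcnip3 a calcium-binding subunit of A-type channels that also acts as a transcriptional repressor, Kcnn2 a small-conductance calcium-activated channel, and Kcnmb4 a beta subunit of the large-conductance calcium-activated channel. The pore gene of that large-conductance channel, Kcnma1, had a mean of 0.838.

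**Figure D1:**
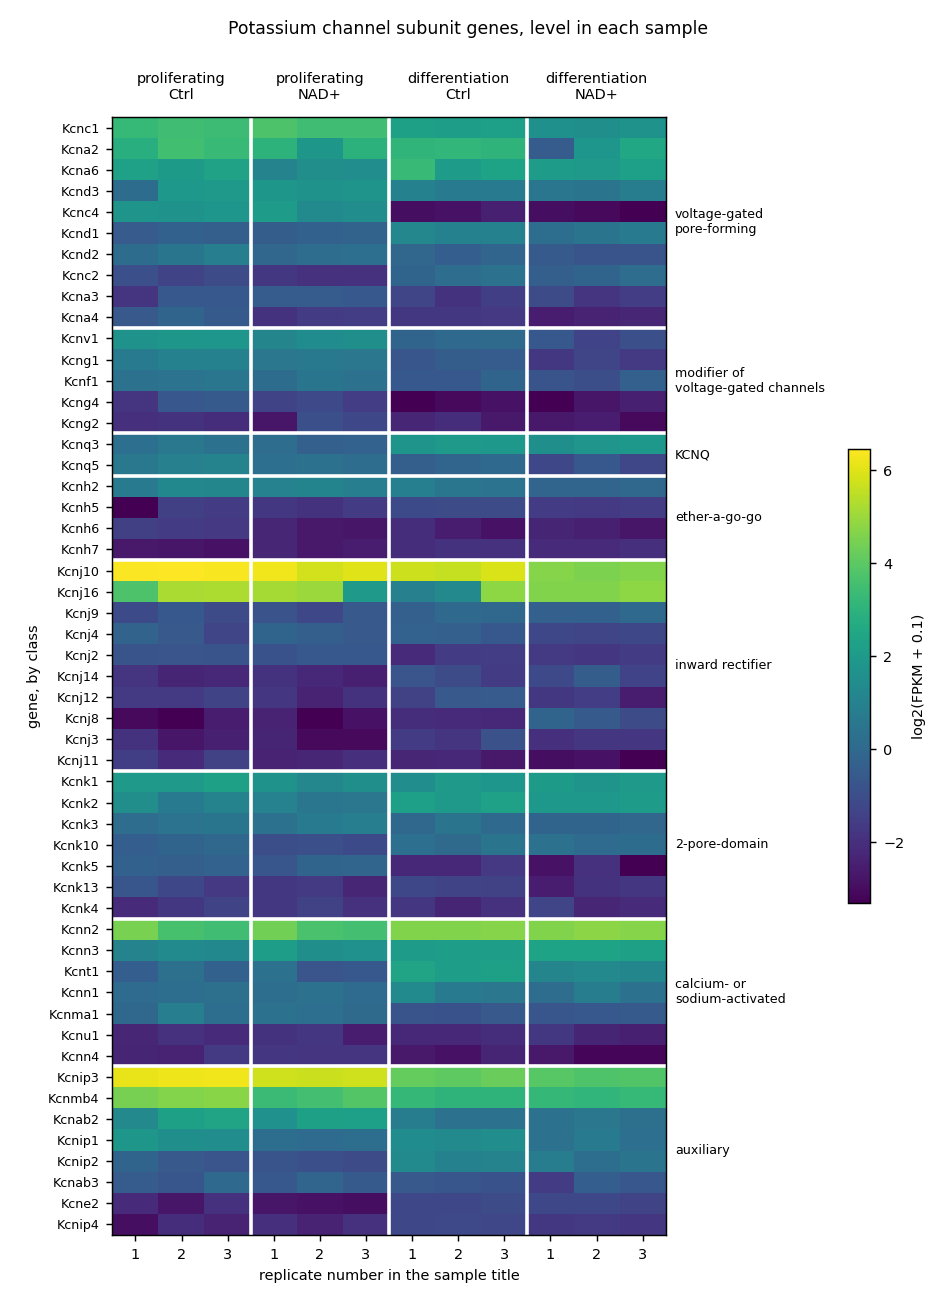
Level of 53 of the 57 potassium channel genes (rows, by class and mean level) in each of the 12 samples (columns), as log2(FPKM + 0.1) by colour. Kcnj10 and Kcnip3 are the brightest rows, Kcnc4 is dark in all 6 differentiation samples, and Kcnj16 changes between replicates of one group.

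The 2 highest genes of each class had widely different levels between classes. Among voltage-gated pore-forming genes these were Kcnc1 (7.33) and Kcna2 (6.86), a fast-repolarizing channel and a low-threshold axonal channel. Kcnv1 (1.80) and Kcng1 (1.00) led the modifiers, Kcnq3 (2.22) and Kcnq5 (1.01) the KCNQ genes of the M-current, and Kcnh2 (1.54) and Kcnh5 (0.242) the ether-a-go-go genes. Among 2-pore-domain genes Kcnk1 (3.43) and Kcnk2 (2.96), a stretch-activated background channel, were highest. Kcnn2 was followed in its class by Kcnn3 (3.68). All these values are mean FPKM over 12 samples.

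Genes near the cut of the rule lay close together. Just inside were Kcnh7 (0.106) and Kcnn4 (0.103), among others, and just outside Kcnab1 (0.0967), Kcnh4 (0.0867) and Kcnk12 (0.065). Of the 35 genes outside, 4 were listed at 0 in all samples, and the highest single value among them was 0.29. Without the group in which it was highest, the mean would be under 0.1 for 6 of the 57 genes (Kcnj8, Kcnh6, Kcnj11, Kcnh7 and Kcnn4 among them), so differences between groups were to some extent built into their choice.

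Under differentiation conditions, the question was how NAD+ exposure changed these genes in cells exposed to retinoic acid and forskolin. Kcnj10, Kcnt1, Kcnip1, Kcng1 and Kcnc1 fell with NAD+, and Kcnj8 was higher. Of the 57 genes, 51 had a mean of at least 0.1 FPKM over the 6 samples and were tested. With limma on log2(FPKM + 0.1), 6 of these 51 had an adjusted p-value under 0.05 (5 lower and 1 higher), against 6.92% of all 19611 genes tested, of which 4.65% were lower and 2.27% higher. This count was 2 without differentiation Ctrl sample 1 and 3 without Ctrl sample 2 or 3. Over all genes the calls were then 328, 420 and 406, against 1357 with all 6 samples. The rule of the study was an unadjusted p-value under 0.05, here taken from limma, and a mean ratio above 2. By this rule 13 passed (11 lower and 2 higher), where all genes gave 4.05%, or 2.69% lower and 1.36% higher. With any 1 of the 6 samples left out, 7 or 8 passed. Before adjustment, 22 of the 51 had a p-value under 0.05, and 24.2% of all genes did. The values of the 2 groups did not overlap for 22 of the 51 genes (20 lower and 2 higher), against 30.7% of all genes, of which 21.1% were lower and 9.68% higher. The median log2 fold change of the 51 genes was −0.275, and that of all genes −0.085.

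Kcnj10 encodes the main inward rectifier of astrocytes. Its FPKM values were 52.3, 49.3 and 60.9 in Ctrl and 26.0, 23.4 and 24.8 with NAD+. Every NAD+ sample lay under every Ctrl sample, a 2.19-fold lower mean (log2 fold change −1.12, SE 0.09, adjusted p = 0.0041). Other astrocyte markers went both ways in the same samples. Gfap rose (log2 fold change 0.72, SE 0.07, adjusted p = 0.0061), as did Slc1a3 (0.36) and Slc1a2 (0.26), the glutamate transporter genes, while Aldh1l1 (−0.61) and Aldoc (−0.35) fell. The summed FPKM of the 8 astrocyte markers ranged from 1644 to 1766 in Ctrl and from 1996 to 2108 with NAD+. That rise was carried by Gfap, at 597.7, 546.0 and 642.1 in Ctrl and 998.6, 965.0 and 967.0 with NAD+. The part of cell makeup in the Kcnj10 result was not tested.

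Kcnt1 encodes a sodium-activated channel. Its FPKM values were 5.16, 4.43 and 4.58 in Ctrl and 2.09, 2.32 and 2.13 with NAD+. The groups were apart by a 2.17-fold lower mean with NAD+ (log2 fold change −1.08, SE 0.10, adjusted p = 0.0049). Kcnip1, which encodes a calcium-binding subunit of A-type channels, had FPKM values of 2.58, 2.49 and 2.72 in Ctrl and 1.18, 1.49 and 1.10 with NAD+, again without overlap (log2 fold change −1.0, SE 0.14, adjusted p = 0.0135). Kcnj10 and Kcnt1 were called in 14 of 14 alternative settings, Kcnc1 in 12 and Kcnip1 in 11, the last being lost without any 1 of the 3 Ctrl samples (adjusted p-values up to 0.0593). The A-type pore genes it binds gave log2 fold changes of −0.61 for Kcnd1, −0.49 for Kcnd2 and −0.21 for Kcnd3, with adjusted p-values of 0.0694 or more.

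Kcnc1 showed a smaller but tight difference. Its FPKM values were 4.67, 4.35 and 4.52 in Ctrl and 2.91, 2.84 and 3.06 with NAD+ (log2 fold change −0.60, SE 0.08, adjusted p = 0.0112). Kcng1, a modifier that joins pore-forming voltage-gated subunits, had values of 0.51, 0.64 and 0.62 in Ctrl and 0.20, 0.31 and 0.22 with NAD+ (log2 fold change −1.02, SE 0.22, adjusted p = 0.0465). The Kcng1 call was kept in 3 of 13 alternative settings, with adjusted p-values from 0.0394 to 0.144.

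Kcnj8, the pore gene of an ATP-sensitive inward rectifier known from pericytes and smooth muscle, was the one of the 6 with a higher level. Its mean over the other 9 samples was 0.0678 FPKM, so that the level with NAD+ under differentiation conditions alone brought it into the 57, and its difference is a description. Its FPKM values were 0.14, 0.13 and 0.12 in Ctrl and 0.78, 0.59 and 0.39 with NAD+, a 4.51-fold higher mean (log2 fold change 1.54, SE 0.28, adjusted p = 0.028). All 3 NAD+ samples were above all 3 Ctrl samples, at low levels throughout. Of 8 pericyte markers, Higd1b was at 0 in all 12 samples, Anpep at or under 0.13 and Abcc9, which encodes the regulatory subunit that goes with Kcnj8, at or under 0.10. Rgs5 was at 0.27, 0.41 and 0.53 in Ctrl and at 0.64, 0.56 and 0.61 with NAD+, without overlap and in the same direction as Kcnj8 (log2 fold change 0.51, adjusted p = 0.259). Pdgfrb was at 0.17, 0.26 and 0.23 in Ctrl and at 0.02, 0.03 and 0.10 with NAD+. Its groups did not overlap, its direction was opposite to that of Kcnj8, and it did not pass the adjusted threshold. Vtn lay between 0.67 and 0.79 in these 6 samples, and Notch3 fell (−0.74, adjusted p = 0.00665). The summed FPKM of these 8 markers ranged from 15.4 to 16.4 in Ctrl and from 9.74 to 11.3 with NAD+, mostly from Notch3, and the part of such cells in the Kcnj8 values was not tested. The call was kept in 7 of 13 alternative settings (adjusted p-values from 0.0229 to 0.0862).

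**Figure D2:**
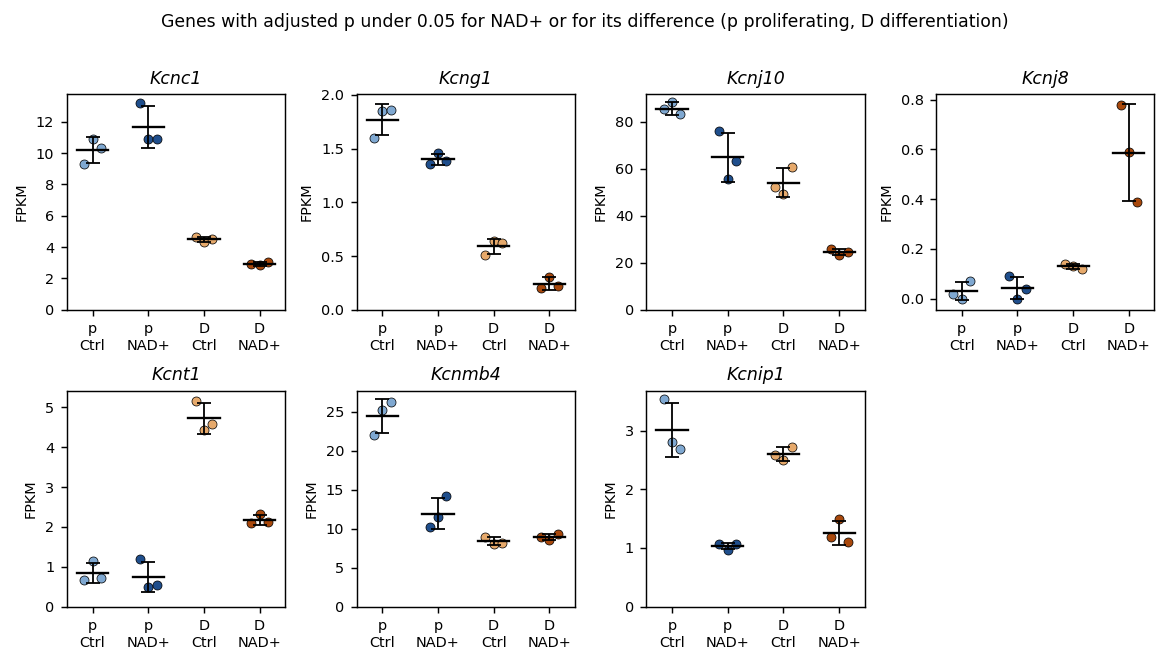
FPKM (vertical axes, scaled for each gene) of the 7 genes that passed the adjusted threshold of 0.05 for NAD+ in either condition or for the difference between the conditions. Points are samples, horizontal bars are means and whiskers are SD (n = 3), and the groups do not overlap for Kcnmb4 under proliferating conditions (adjusted p = 0.0583, above the threshold) and for Kcnt1 and Kcnc1 under differentiation conditions (both past it).

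The other genes that passed the rule of the study under differentiation conditions had adjusted p-values from 0.0546 to 0.206. Lower mean levels with NAD+ were seen for Kcnv1 (2.10-fold), Kcnq5 (2.03-fold), Kcnj4 (2.02-fold), Kcnj12 (2.86-fold), Kcnk13 (2.09-fold), Kcna4 (2.26-fold) and Kcna2 (2.60-fold). In these 7 genes every NAD+ sample lay under every Ctrl sample. Kcnj16 passed with a higher mean although its groups overlapped, and its values are given further on. Kcnip3 (log2 fold change −0.30, adjusted p = 0.0634) and Kcnh2 (−0.71, adjusted p = 0.0566) had groups that were apart without a ratio above 2.

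By class, no modifier or ether-a-go-go gene tested had a higher level with NAD+ under differentiation conditions. A log2 fold change under 0 was seen in 3 of 3 modifiers and in 3 of 3 ether-a-go-go genes, with medians of −0.948 and −0.521. Of these 6 genes, Kcng1 passed the test. Voltage-gated pore-forming genes had a log2 fold change under 0 in 9 of 11 cases (median −0.493), and auxiliary genes in 7 of 8 (median −0.232). Inward rectifiers divided into 5 lower and 4 higher (median −0.083) and calcium- or sodium-activated genes into 3 and 3 (median 0.011). Among all genes, 12119 of 19611 had a log2 fold change under 0. With quantile normalization, 33 of the 51 genes had a log2 fold change under 0, and 39 with the values as deposited.

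Some highly expressed genes showed little difference. Kcnn2 had FPKM values of 24.4, 24.7 and 25.5 in Ctrl and 24.5, 27.1 and 26.0 with NAD+ (log2 fold change 0.06, 95% interval from −0.08 to 0.19). Kcnmb4 gave 8.99, 8.09 and 8.13 in Ctrl and 8.96, 8.58 and 9.31 with NAD+ (log2 fold change 0.09, 95% interval from −0.08 to 0.26). Both pairs of groups overlapped.

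Under proliferating conditions the same comparison was made in dividing cells. Kcnip1 fell with NAD+, and it was the only one of the 52 genes tested to pass the adjusted threshold, where all genes gave 0.145%, or 0.0968% lower and 0.0484% higher. Its FPKM values were 3.54, 2.81 and 2.69 in Ctrl and 1.07, 0.97 and 1.06 with NAD+, so that every NAD+ sample lay under every Ctrl sample. The mean was 2.92-fold lower (log2 fold change −1.45, SE 0.16, adjusted p = 0.0373). This call was kept in 6 of 14 alternative settings. It was lost without any one of 5 of the 6 samples, proliferating Ctrl 2 and 3 and each of the 3 NAD+ samples (adjusted p-values from 0.109 to 0.191). In these fits 1, 0, 0, 0 and 2 of all genes passed, against 27 with all 6 samples. The log2 fold change of Kcnip1 stayed between −1.53 and −0.98 in all settings. Summed markers of other kinds moved in the same samples. Those of neural stem/progenitor cells ranged from 2622 to 2870 FPKM in Ctrl and from 1608 to 2120 with NAD+, and those of the oligodendrocyte lineage from 1265 to 1379 and from 1013 to 1045. No marker of either list passed the adjusted threshold, and the part of cell makeup in the Kcnip1 result was not tested.

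By the rule of the study, 5 genes passed under proliferating conditions, all lower with NAD+, against 3.01% of all 18597 genes tested, of which 1.41% were lower and 1.60% higher. Beside Kcnip1 these were Kcnmb4, Kcna4, Kcnc2 and Kcnh6. Kcnmb4 had FPKM values of 22.0, 25.2 and 26.3 in Ctrl and 10.2, 11.5 and 14.2 with NAD+, a 2.05-fold lower mean (log2 fold change −1.04, SE 0.14, adjusted p = 0.0583). Kcna4, an A-type pore gene, went from 0.56, 0.78 and 0.58 in Ctrl to 0.17, 0.23 and 0.24 with NAD+ (log2 fold change −1.23, SE 0.24, adjusted p = 0.116). In both genes the groups did not overlap. Kcnc2 and Kcnh6 were at or under 0.43 FPKM in all 6 samples and had adjusted p-values of 0.237 and 0.216, and Kcnh6 was among the 57 through its proliferating Ctrl level alone.

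Of the 52 genes, 14 had an unadjusted p-value under 0.05, against 15.4% of all genes. The groups did not overlap for 19 genes (16 lower and 3 higher), against 24.1% of all genes, of which 8.59% were lower and 15.5% higher. The median log2 fold change was −0.126 for the 52 genes and 0.072 for all. Kcnip3 was among the genes whose groups were apart, with FPKM values of 69.7, 74.1 and 76.3 in Ctrl and 54.0, 51.1 and 54.7 with NAD+ (log2 fold change −0.46, SE 0.07, adjusted p = 0.0813). Kcnj10 had 85.2, 88.4 and 83.3 in Ctrl and 76.2, 55.5 and 63.3 with NAD+ (log2 fold change −0.41, SE 0.12, adjusted p = 0.21). Kcnk10, a background channel gene, and Kcna6 were also lower in all 3 NAD+ samples, with adjusted p-values above 0.05.

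Kcnn3 was among the 3 genes whose groups were apart with higher levels under proliferating conditions. Kcnn3, a small-conductance calcium-activated channel gene, had FPKM values of 2.00, 2.45 and 2.27 in Ctrl and 4.34, 2.81 and 2.98 with NAD+ (log2 fold change 0.55, SE 0.19). Its groups did not overlap. Under differentiation conditions it was at 4.21, 4.24 and 4.25 in Ctrl and 5.04, 5.01 and 4.60 with NAD+ (log2 fold change 0.20, SE 0.07), again apart, and neither difference passed the adjusted threshold. Among the genes with means under 0.1 FPKM here, which were not tested, were Kcne2, Kcnh7, Kcnj3 and Kcnj8. Under differentiation conditions the genes left out for low level were Kcnc4, Kcng2, Kcng4, Kcnh6, Kcnj11 and Kcnn4.

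**Figure D3:**
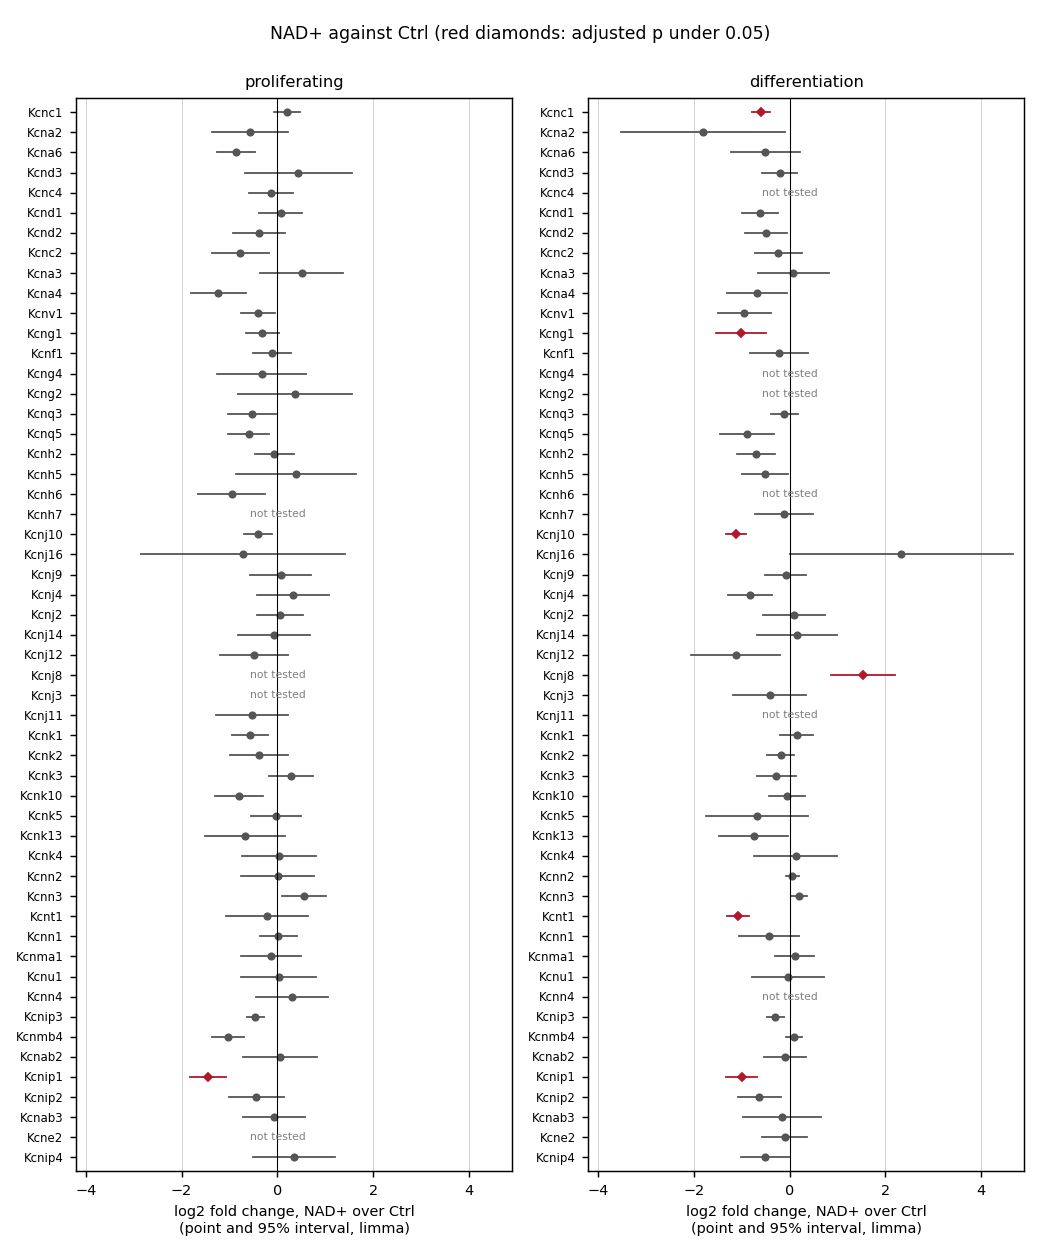
Log2 fold change of NAD+ over Ctrl for 53 of the 57 genes under proliferating (left) and differentiation (right) conditions, with 95% intervals from limma on log2(FPKM + 0.1). Red diamonds mark an adjusted p-value under 0.05 (1 gene on the left, 6 on the right), and Kcnj16 has the widest interval in both.

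The NAD+ effect differed between the conditions for Kcnmb4 and Kcnc1. The difference was tested in a fit of all 12 samples, where the adjusted p-value was under 0.05 for 2 of 57 genes (1 higher and 1 lower), against 0.467% of all 19498 genes tested, or 0.221% higher and 0.246% lower. For Kcnmb4 the log2 fold change with NAD+ was −1.04 under proliferating conditions and 0.09 under differentiation conditions, a difference of 1.13 (SE 0.16, adjusted p = 0.0198). For Kcnc1 the log2 fold change was 0.19 under proliferating conditions, where the FPKM values were 9.28, 10.9 and 10.4 in Ctrl and 13.2, 10.9 and 10.9 with NAD+. It was −0.60 under differentiation conditions, a difference of −0.80 (SE 0.13, adjusted p = 0.0386).

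These 2 calls depended on settings. Kcnmb4 was called in 14 of 20 alternatives (adjusted p-values from 0.00579 to 0.0608) and was lost without proliferating Ctrl 3, proliferating NAD+ 2, differentiation NAD+ 3 or any differentiation Ctrl sample, with a difference of 1.08 to 1.18. Over all genes between 14 and 35 passed in the fits that lost Kcnmb4, against 91 with all 12 samples. Kcnc1 was called in 7 of 20 (adjusted p-values from 0.028 to 0.113). Median-ratio scaling moved the median difference of all genes from −0.155 to −0.016, and Kcnc1 then had an adjusted p of 0.067. For Kcnj10 the difference was −0.71 (SE 0.16, adjusted p = 0.081). For Kcnip1, lower with NAD+ in both conditions, it was 0.45 with a 95% interval from −0.002 to 0.898.

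Between proliferating and differentiation conditions these genes changed in both directions. The FPKM values of the conditions were deposited in separate tables, so that a common scale is an assumption in this comparison. In Ctrl cells, 40 of the 57 passed the adjusted threshold (21 higher and 19 lower upon differentiation), against 56.7% of all genes, of which 31.6% were lower. With NAD+, 43 passed (18 higher and 25 lower), against 58.4%, of which 20.8% were higher and 37.6% lower. Groups did not overlap for 40 genes in Ctrl (21 higher and 19 lower), against 61.7% of all (27.9% higher and 33.9% lower). With NAD+ they did not overlap for 46 (22 higher and 24 lower), against 66.3% of all (24.6% higher and 41.7% lower). The comparison in Ctrl and that with NAD+ use different samples, and both share those samples with the NAD+ comparisons. With quantile normalization the division in Ctrl was 14 higher and 21 lower.

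Kcnc4, a fast-inactivating voltage-gated channel gene, had the largest fall. Its FPKM values in Ctrl were 3.21, 3.15 and 3.43 under proliferating and 0.03, 0.04 and 0.08 under differentiation conditions (log2 fold change −4.50, SE 0.22, adjusted p = 5e-08). With NAD+ they were 4.0, 2.45 and 2.70 against 0.03, 0.02 and 0.00 (log2 fold change −4.73, SE 0.22, adjusted p = 2.9e-08). The differentiation values are a few steps of the rounding, so the size of the fall is uncertain. The gene lies at chr3:107438303-107459552 on the minus strand. The voltage-gated genes Kcna3 (chr3:107036169-107038070) and Kcna2 (chr3:107101146-107115005) on the plus strand of the same region had log2 fold changes of −0.52 and −0.09 in Ctrl, which did not pass the test. With NAD+ Kcna3 passed at −0.95 (adjusted p = 0.0321 by limma), without overlap, a call kept in 12 of 20 alternative settings. Kcna2 was at −1.31 with NAD+ (adjusted p = 0.0869 by limma), which did not pass.

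Members of the same subfamily moved apart. Kcnc1 fell from 9.28, 10.9 and 10.4 to 4.67, 4.35 and 4.52 (log2 fold change −1.15, SE 0.10, adjusted p = 2.1e-06), whereas Kcnc2 (1.22, SE 0.21) rose. Among A-type pore genes Kcnd1 rose from 0.60, 0.73 and 0.69 to 2.19, 1.85 and 1.88 (log2 fold change 1.42, SE 0.16, adjusted p = 2e-05), while Kcnd2 fell (−0.70, SE 0.20) and Kcna4 fell (−1.27, SE 0.21). All these values are for Ctrl.

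The modifiers went one way. All 5 had a log2 fold change under 0 in Ctrl (median −1.44), as had 10248 of all 19498 genes, and Kcnv1, Kcng1, Kcnf1 and Kcng4 passed the test (lower calls were 31.6% of all genes). Kcnv1 had FPKM values of 3.10, 3.53 and 3.47 under proliferating and 0.80, 0.92 and 0.95 under differentiation conditions (log2 fold change −1.81, SE 0.19, adjusted p = 1.3e-05). Kcng1 went from 1.60, 1.85 and 1.86 to 0.51, 0.64 and 0.62 (log2 fold change −1.44, SE 0.17, adjusted p = 2.5e-05). In neither gene did the groups overlap. With NAD+ all 5 modifiers passed with lower levels (median −1.5), against 37.6% of all genes. The groups of Kcng2 overlapped there, and its call was kept in 12 of 20 alternative settings.

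Among KCNQ genes, Kcnq3 rose from 1.10, 1.43 and 1.18 to 3.27, 3.71 and 3.58 in Ctrl (log2 fold change 1.44, SE 0.16, adjusted p = 2e-05) and Kcnq5 fell (−1.01, SE 0.21). In the ether-a-go-go class Kcnh5 passed with a higher and Kcnh2 with a lower level in Ctrl. These calls were kept in 6 of 20 and 7 of 21 alternative settings (adjusted p-values up to 0.154 and 0.146), and the Kcnh2 groups overlapped. Kcnh7 was higher and Kcnh6 lower in Ctrl, but each had reached the mean of 0.1 FPKM only through the Ctrl group in which it was high, so that these differences are descriptions. With NAD+, Kcnh2 passed with a lower level (−1.09, SE 0.17).

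Inward rectifiers and background channels varied in the same way. Kcnj10 fell in Ctrl (log2 fold change −0.67, SE 0.11, adjusted p = 0.00039) and with NAD+ (−1.38, SE 0.11, adjusted p = 1.4e-06), and the Ctrl call was lost with quantile normalization (−0.17, adjusted p = 0.271). In the same Ctrl comparison the sum of the 8 astrocyte markers went from between 1117 and 1196 to between 1644 and 1766. That rise was carried by Gfap, which went from between 17.5 and 20.2 to between 546.0 and 642.1 FPKM. Of the 8 markers, 5 passed with a higher and 2 with a lower level. Aldoc and S100b had lower values without overlap. Kcnj2, a strong inward rectifier, fell in Ctrl (−1.0, SE 0.21), and Kcnj9, Kcnj14 and Kcnj3 rose, each at or under 0.93 FPKM in every Ctrl sample. These calls were kept in 20, 15 and 13 of 20 alternative settings. Kcnj8 was at or under 0.07 FPKM in proliferating Ctrl and between 0.12 and 0.14 in differentiation Ctrl (adjusted p = 0.0428 by limma). That call was kept in 8 of 19 alternative settings. With only the 2 Ctrl groups fitted Kcnj8 was too low to be tested, so its difference is a description. Kcnk2 rose from 2.76, 1.49 and 1.99 to 4.54, 3.79 and 4.82 (1.07, SE 0.21, adjusted p = 0.0011) and Kcnk5, an acid-sensitive background channel, fell from 0.72, 0.67 and 0.75 to 0.12, 0.12 and 0.21 (−1.72, SE 0.33, adjusted p = 0.0011).

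Kcnt1 had the largest rise in Ctrl. Its values went from 0.66, 1.14 and 0.73 to 5.16, 4.43 and 4.58 FPKM (log2 fold change 2.39, SE 0.27, adjusted p = 2.4e-05). With NAD+ they went from 1.19, 0.50 and 0.55 to 2.09, 2.32 and 2.13 (log2 fold change 1.52, SE 0.27, adjusted p = 0.00061). Kcnn3 (0.89, SE 0.15), Kcnn2 (0.78, SE 0.26) and Kcnn1 (0.66, SE 0.22) also rose in Ctrl, and Kcnma1 fell (−1.09, SE 0.22).

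Auxiliary genes held the clearest falls at high level. Kcnip3 went from 69.7, 74.1 and 76.3 to 17.6, 16.2 and 18.8 FPKM in Ctrl, a 4.19-fold lower mean (log2 fold change −2.06, SE 0.07, adjusted p = 4.8e-09). Its relatives Kcnip2 (1.61, SE 0.21) and Kcnip4 (1.26, SE 0.26) rose, and Kcnip1 did not pass (−0.20, SE 0.14). Kcnmb4 fell 2.92-fold in Ctrl (log2 fold change −1.53, SE 0.11, adjusted p = 1e-06). With NAD+ its log2 fold change was −0.40 (SE 0.11, adjusted p = 0.011), and with quantile normalization this call was lost (−0.01, adjusted p = 0.936). Kcnab2, a cytosolic beta subunit, fell (−1.48, SE 0.28), and Kcne2, a small membrane subunit, rose from at most 0.16 to between 0.33 and 0.38 FPKM (1.11, SE 0.24).

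**Figure D4:**
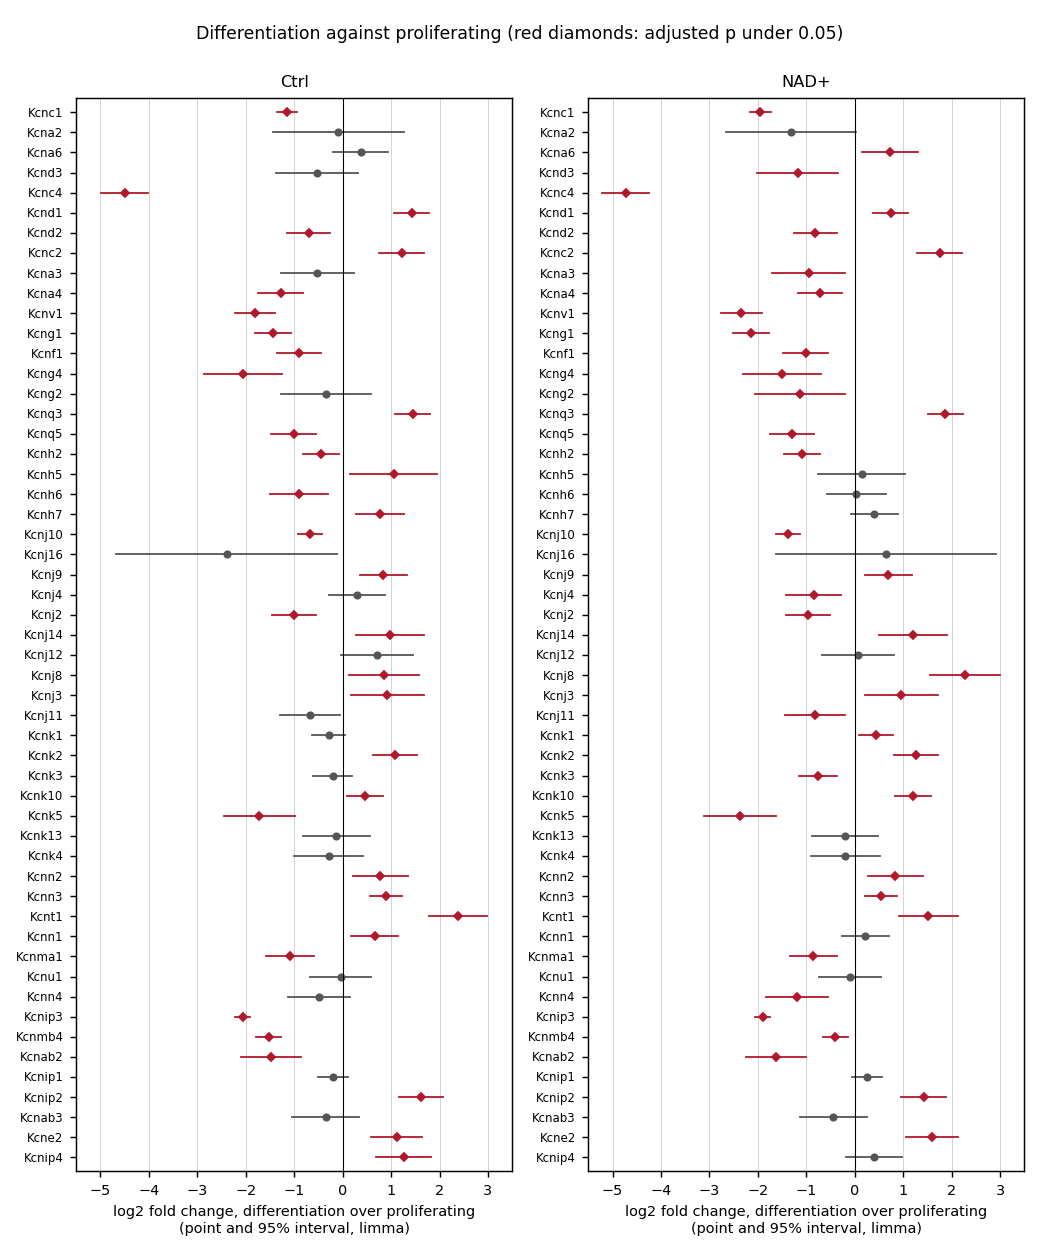
Log2 fold change of differentiation over proliferating conditions for 53 of the 57 genes in Ctrl (left) and with NAD+ (right), with 95% intervals from limma in a fit of all 12 samples. Red diamonds mark an adjusted p-value under 0.05 (36 of those shown on the left, 40 on the right), and Kcnc4 stands apart at −4.50 and −4.73.

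With NAD+, large rises upon differentiation were those of Kcnq3 (log2 fold change 1.87, SE 0.16), Kcnc2 (1.75, SE 0.21) and Kcne2 (1.59, SE 0.24). Kcnj8 gave 2.27 (SE 0.33), a value into the group that brought it into the 57. Kcnk10 also rose (1.20, SE 0.17). The largest falls after Kcnc4 were those of Kcnk5 (−2.37, SE 0.33), Kcnv1 (−2.34, SE 0.19), Kcng1 (−2.14, SE 0.17), Kcnc1 (−1.95, SE 0.10) and Kcnip3 (−1.90, SE 0.07). Whether single genes differed between Ctrl and NAD+ in this respect is the same test as the difference of the NAD+ effect above, which 2 genes passed.

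Some genes varied widely between replicates of one group. Of the 27 genes with a mean of at least 1 FPKM, 8 differed over 2-fold between replicates of some group, in 11 gene and group pairs. Kcnj16 was the most variable. Its FPKM values were 13.4, 37.4 and 38.6 in proliferating Ctrl, 35.7, 31.9 and 3.75 in proliferating NAD+, 1.84, 2.36 and 27.9 in differentiation Ctrl, and 24.3, 24.6 and 28.2 in differentiation NAD+. Single samples were low in both proliferating groups, and in differentiation Ctrl the third was as high as the NAD+ samples. The log2 fold change with NAD+ under differentiation conditions was 2.33 (SE 0.97, adjusted p = 0.206), and without differentiation Ctrl sample 3 it was 3.56 with an adjusted p of 0.0029. Kcnj10, its partner subunit, varied by under 2-fold within each group.

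Kcna2 had FPKM values of 8.44, 8.86 and 8.25 in differentiation Ctrl and 0.63, 3.44 and 5.74 with NAD+ (log2 fold change −1.80, SE 0.71, adjusted p = 0.189). The Ctrl values were tight and the NAD+ values spread widely. Without NAD+ sample 1 the log2 fold change was −0.92 (adjusted p = 0.0847). Kcnd3 was at 1.01 in proliferating Ctrl sample 1 and at 3.64 and 3.75 in the other samples of that group. Kcnn2 was highest in the sample numbered 1 of both proliferating groups, at 22.4 against 12.3 and 10.9 in Ctrl and at 20.6 against 12.5 and 11.7 with NAD+. Aqp4, an astrocyte water channel gene, was likewise at 13.7 against 5.82 and 5.23, and at 9.95 against 2.42 and 2.82. The part of this shared variation in the Kcnn2 comparisons was not tested.

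**Figure D5:**
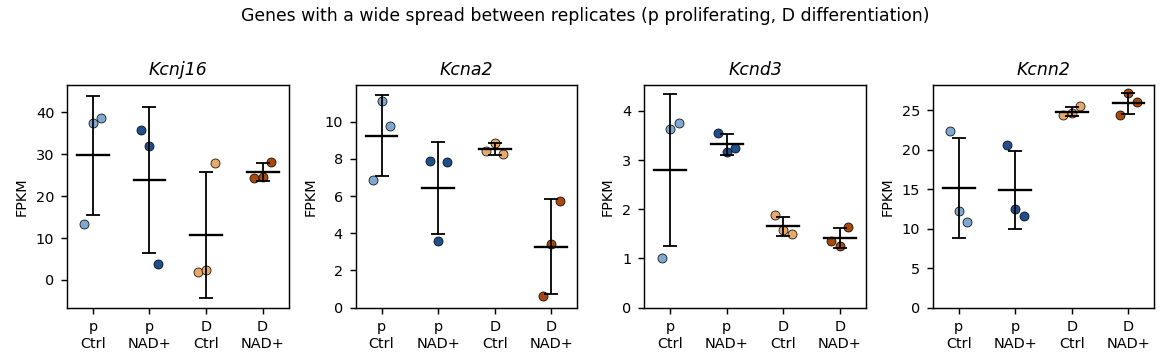
FPKM of Kcnj16, Kcna2, Kcnd3 and Kcnn2 in each sample of the 4 groups, with means (bars) and SD (whiskers, n = 3). Kcnj16 has 1 or 2 low samples in each of 3 groups, and Kcna2 spreads from 0.63 to 5.74 in differentiation NAD+.

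Genes beside the channels were taken from a list of 28 channel partners and potassium or chloride transporters. Under proliferating conditions 17 could be tested and none reached an adjusted p-value under 0.05 by limma. Under differentiation conditions 19 could be tested and 3 passed, against 6.92% of all genes. Dpp10, an auxiliary subunit of A-type channels, fell (FPKM values of 1.21, 1.29 and 1.31 in Ctrl and 0.64, 0.78 and 0.65 with NAD+, log2 fold change −0.80, SE 0.14, adjusted p = 0.0269). Slc12a4, a potassium and chloride exporter gene, fell (−0.30, SE 0.06) and Slc12a2, a gene for an importer of sodium, potassium and chloride, rose (0.46, SE 0.05). Upon differentiation in Ctrl, 9 of 17 rose and 3 fell, against 56.7% of all genes in either direction, with Slc12a7 (1.23, SE 0.21) and Adam23 (1.38, SE 0.27) higher and Dpp6 lower (−1.31, SE 0.25).

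Antisense genes overlap some of these genes, and the library kit is not stated to keep strand, so reads of an overlapping pair cannot be told apart. Kcnmb4os2 overlaps Kcnmb4 and was listed at 5.43, 3.05 and 4.55 FPKM in proliferating Ctrl and at 0.89, 3.16 and 1.77 with NAD+. It was at or under 0.66 in the 6 differentiation samples. A330093E20Rik overlaps Kcnn2 and was between 0.55 and 0.84 FPKM in the proliferating and between 2.66 and 3.72 in the differentiation samples. Kcnd3os overlaps Kcnd3 and was between 1.28 and 1.94 in the proliferating and between 0.28 and 0.62 in the differentiation samples. The part of these genes in the results of Kcnmb4, Kcnn2 and Kcnd3 was not tested.

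An exact two-sided permutation test of 3 samples against 3 cannot go below p = 0.10. That value was reached by every gene whose groups did not overlap, including Kcnj10, Kcnt1, Kcnip1, Kcng1, Kcnc1 and Kcnj8 under differentiation conditions and Kcnip1 and Kcnmb4 under proliferating conditions.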

How the data were processed

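aNSPC RNA was sequenced in 12 samples of 4 groups (n = 3 each). The authors used Hisat2 (v2.0.5) for alignment to mm10, kept unique alignments, counted these per gene with FeatureCounts (v2.0.1) and deposited FPKM values in a table for each condition. The program that made the FPKM values is not given in the sources used here. The tables also hold the authors' own fold changes, p-values and significance marks, and none of those entered here. The number of per-sample columns omitted was 0. All 664812 FPKM values are multiples of 0.01, and depth is unknown.

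FPKM values were used as deposited, 0.1 was added and log2 was taken, a scale that understates changes of low genes. Genes with a mean of at least 0.1 over the fitted samples were tested with limma 3.58.1 in R 4.3.3 (moderated, two-sided, with a variance trend), with Benjamini-Hochberg adjustment over every gene tested. NAD+ was compared with Ctrl in fits of 6 samples per condition. The difference of the NAD+ effect and the differentiation comparisons came from a fit of all 12. For the rule of the study (mean FPKM ratio above 2 and p-value under 0.05 before adjustment), FPKM values of 0 were raised to 0.0001. The p-values in this rule were those of limma. Over all genes it passed 559 under proliferating and 795 under differentiation conditions. The study reports fewer in each, so its own lists are not reproduced. Single genes were compared by exact permutation tests. The code was tested on simulated data.

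Genes were named when they were called in a comparison (at most 25 per comparison), were among the 2 highest of a class, or lay next to the level of 0.1. A few others (Kcnd3, Kcnma1, Kcnn3, Kcna3, Kcna6, Kcnk10 and some overlapping genes) and the start regions shown were added with their values already known. The 57 genes and all lists were chosen with earlier results of these data known, including that potassium channel genes were among those lower with NAD+ under differentiation conditions, so the counts are no independent support of that. Gene positions came from GENCODE M21 (GRCm38) and start regions from RefSeq (GRCm38.p6). Alternatives were other values added before log2, other filters, 2 other scalings, the replicate number as a block, no variance trend, and leaving out each sample. A few of the genes are counted but not reported singly here. Other steps ran in Python 3.11.15 (pandas 2.3.3, numpy 2.4.6, scipy 1.17.1), and plots used matplotlib 3.10.9.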

Additional observations from a re-analysis of the deposited data

Results flagged for a closer look

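The NAD+ effect on Kcnmb4 differed between the proliferating and the differentiation conditions by 1.13 on the log2 scale (SE 0.16, adjusted p = 0.0198 by limma), which a test of the difference itself showed. Kcnmb4 was lower in all 3 proliferating NAD+ samples than in all 3 proliferating Ctrl samples, and its groups overlapped under differentiation conditions.

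The NAD+ effect on Kcnc1 differed between the conditions by −0.80 on the log2 scale (SE 0.13, adjusted p = 0.0386 by limma). Kcnc1 was lower in all 3 differentiation NAD+ samples than in all 3 Ctrl samples, and its groups overlapped under proliferating conditions. Groups of 3 were not screened for single samples that stand apart.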

How the results depend on the processing

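Of 2219 results for single genes under the alternatives, 2015 kept their direction and their side of the threshold, 177 lost the call, 27 gained it and 0 changed sign. Kcnj10 and Kcnt1 under differentiation conditions were called in 14 of 14 alternatives. For the counts of genes with an adjusted p-value under 0.05, the 1 gene under proliferating conditions (NAD+ against Ctrl) became 0 without the filter and without the variance trend, and 2 with a minimum mean FPKM of 1, median-ratio scaling or quantile normalization, and lay between 0 and 1 when single samples were left out. Over all genes the 27 calls became 9, 0, 75, 33 and 60 in these settings and lay between 0 and 36 when single samples were left out. The 6 genes under differentiation conditions became 10 without the variance trend and lay between 2 and 5 when single samples were left out, 2 without differentiation Ctrl sample 1 and 3 without Ctrl sample 2 or 3. Over all genes the 1357 calls became 619 without the variance trend and lay between 328 and 719 when single samples were left out. The 2 genes with a different NAD+ effect became 1 with median-ratio scaling, quantile normalization or no variance trend and lay between 0 and 2 without single samples, 0 without proliferating Ctrl 3, proliferating NAD+ 2, differentiation NAD+ 3 or any differentiation Ctrl sample. Over all genes the 91 calls became 93, 91 and 56 in these settings and lay between 12 and 195 without single samples. The 40 genes that differed upon differentiation in Ctrl became 20, and the 43 with NAD+ became 22, with a minimum mean FPKM of 1, where fewer genes were tested. By the rule of the study, the 5 genes under proliferating conditions became 2 with a minimum mean FPKM of 1 and 3 with the fold taken on the fitted log2 scale. The 13 under differentiation conditions became 4 with that minimum, 8 with median-ratio scaling and 8 on the fitted scale, and lay between 7 and 8 when any 1 of the 6 samples was left out. Apart from the filters and the samples left out, the cause of these changes was not tested. Median-ratio scaling moved the median log2 fold change of all genes from −0.203 to 0.048 for differentiation with NAD+ and from −0.060 to 0.054 in Ctrl, and the division of the called genes with NAD+ from 18 higher and 25 lower to 20 and 19.

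Samples with the same number correlated around their group means at 0.111, 0.021 and 0.053 under proliferating and at 0.041, 0.043 and 0.026 under differentiation conditions, so the numbers were not taken to pair samples. With the replicate block, 0 genes passed with limma under proliferating conditions (12 did so before adjustment), 4 under differentiation conditions, 1 for the difference, 38 and 42 upon differentiation in Ctrl and with NAD+, and 5 and 11 by the rule of the study. Over all genes the limma calls with the block were 0, 758, 26, 10903 and 11218 in the same order. Depth is unknown, so no limit from counting can be given for the 30 genes with a mean under 1 FPKM.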
